A study of Mus musculus with 58 samples.

Results

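Transcripts of the inducible and constitutive heat shock chaperones were followed in lung, liver and forestomach of the same mice after oral exposure to indeno(1,2,3-cd)pyrene (IP), a polycyclic aromatic hydrocarbon. The gene set comprised Hspa1a, Hspa1b, Hsph1, Dnaja1, Dnajb1, Hsp90aa1, Hspa8, Hspb1, Hspe1 and Hspd1. It was chosen by earlier results on these same arrays, in which heat shock transcripts were lower in exposed lung, so the lung values of its members, vehicle lungs included, are descriptive and no p is given for them. The gene names matched 15 of the 55681 probes and 9 of the 10 listed genes. No probe was matched to Hspa1b, a near-identical copy of Hspa1a, so Hspa1a values may include signal from both genes. Male Muta™Mouse, a transgenic lacZ reporter strain, aged about 13 weeks, received IP at 12.5, 25 or 50 mg/kg-bw/day in olive oil by daily gavage for 28 days. Vehicle mice received olive oil alone, and tissues were taken 72 h after the last dose. Lung was measured in 5 mice per group, and liver and forestomach in 4 vehicle mice (1, 2, 3 and 5) and 5 mice per dose. All 58 arrays carried the tissue RNA in Cy5 and a common reference RNA from 11 mouse cell lines in Cy3. A level is therefore the log2 ratio of tissue to reference, and levels of different genes cannot be ranked against each other. Mice 6 to 10 received 12.5, mice 11 to 15 received 25 and mice 16 to 20 received 50 mg/kg-bw/day.

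The share of probes with Cy5 signal well above background was 53.0 to 90.7% in lung, 37.6 to 78.9% in liver and 43.0 to 85.9% in forestomach. The brightest probe of each chaperone was above background on all 58 arrays and saturated on none. Hspa1a had a single probe, and it was much dimmer, at a mean log2 signal of 8.16 over both channels. Those of the other genes lay between 12.24 (Hsph1) and 15.85 (Hspa8). No background was subtracted, and the part of dimness in the low Hspa1a ratios was not tested. The lung marker list (6 of 6 genes) and the liver marker list (6 of 6) were above background on every array of their tissue, and the squamous epithelium list (5 of 6) on every forestomach array. Markers of neighbouring tissues were also present. The mean log2 ratio of 6 heart muscle genes in lung spanned 2.23 to 4.98 in vehicle mice and -0.02 to 3.34 at 50 mg/kg-bw/day. That of 6 fat genes in lung spanned 0.54 to 3.35 and 0.33 to 1.02, and that of 6 glandular stomach genes in forestomach 0.77 to 6.31 and 1.65 to 6.42. In whole-tissue RNA, fewer cells of a type and less RNA per cell cannot be told apart.

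Heat shock proteins keep other proteins folded. The Hsp70 proteins bind unfolded stretches in an ATP-driven cycle that J-domain partners start and Hsp110 proteins renew, Hsp90 acts later on client proteins, small heat shock proteins hold aggregating proteins, and Hsp60 with its Hsp10 lid folds proteins inside mitochondria. When unfolded protein accumulates, heat shock factor 1 binds inverted repeats of a short sequence in the promoters of these genes and raises their transcription.

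RefSeq promoters (GRCm38.p6, 250 bases before to 50 after the start site) were found for 8 of the 10 genes, in 13 entries, and not for Hspa8 or Hsp90aa1. Both arrangements of the heat shock element half-site pair, GAANNTTC and TTCNNGAA, each of which reads the same on both strands, were searched, with overlaps counted separately. At least 1 was found in 8 of the 13 entries and in 7 of the 8 genes, against 15.1% of all 32851 promoters of this length. The 4 promoters below are a selection, and all 4 hold a match. Hspa1a, Hsph1 and Dnaja1 had the largest lung differences at the top dose, and Hspe1 is among the genes whose deviations went with the mouse. Capitals mark the matches.
Hspa1a, chr17:34972107-34972406, minus strand: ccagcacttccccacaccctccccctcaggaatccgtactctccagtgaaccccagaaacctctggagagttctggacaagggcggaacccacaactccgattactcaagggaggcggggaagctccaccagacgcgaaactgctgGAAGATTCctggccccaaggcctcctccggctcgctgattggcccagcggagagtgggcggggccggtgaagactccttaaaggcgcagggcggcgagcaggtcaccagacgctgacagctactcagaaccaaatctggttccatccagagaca
Hsph1, chr5:149636287-149636586, minus strand: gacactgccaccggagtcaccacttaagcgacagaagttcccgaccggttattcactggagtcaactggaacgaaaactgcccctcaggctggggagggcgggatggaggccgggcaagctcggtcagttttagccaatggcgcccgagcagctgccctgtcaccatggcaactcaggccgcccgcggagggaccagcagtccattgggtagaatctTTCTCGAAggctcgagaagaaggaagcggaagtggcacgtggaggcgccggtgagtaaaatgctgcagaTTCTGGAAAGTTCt
Dnaja1, chr4:40722218-40722517, plus strand: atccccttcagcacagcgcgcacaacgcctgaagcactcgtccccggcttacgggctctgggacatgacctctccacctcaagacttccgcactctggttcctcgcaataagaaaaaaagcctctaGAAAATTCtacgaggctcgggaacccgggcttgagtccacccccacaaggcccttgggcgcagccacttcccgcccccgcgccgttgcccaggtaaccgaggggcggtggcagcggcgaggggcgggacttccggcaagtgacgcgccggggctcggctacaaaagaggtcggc
Hspe1, chr1:55087898-55088197, plus strand: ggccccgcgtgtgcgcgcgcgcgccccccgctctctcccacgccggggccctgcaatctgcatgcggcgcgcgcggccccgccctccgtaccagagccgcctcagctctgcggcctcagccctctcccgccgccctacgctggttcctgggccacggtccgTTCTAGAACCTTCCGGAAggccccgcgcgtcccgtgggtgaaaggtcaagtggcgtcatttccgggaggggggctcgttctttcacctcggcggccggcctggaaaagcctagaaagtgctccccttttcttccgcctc
The Hspa1a promoter held 1 match, starting at position -104 from the start site, and differed from the Hspa1b promoter at 4 of 300 bases. Dnaja1 held 1 match at -124 in the first of its 3 entries. Hsph1 held 3 matches, at -33, 37 and 42 in the entry shown, and Hspe1 held 3 that overlap one another, at -89, -84 and -79. Promoters with 3 or more matches made up 0.256% of the table. The second Hspd1 entry shares 285 bases with the Hspe1 promoter on the opposite strand, so it holds the same 3 matches. The 2 genes are divergently transcribed, and the first Hspd1 entry held no match. Hspb1 held 2 matches, at -117 and -97, and Dnajb1 held none in its 2 entries. A match is a stretch of letters and does not show that a factor binds there.

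In vehicle mice the small heat shock protein Hspb1, which holds misfolded proteins, stood highest in forestomach and lung relative to liver. Its level was 3.21 ± 0.46 (SD, n = 4) in forestomach, 2.46 ± 0.64 (SD, n = 5) in lung and 0.71 ± 1.1 (SD, n = 4) in liver. Forestomach exceeded liver 5.67-fold (limma adjusted p = 2.4e-08), and the lung mean was 3.37-fold that of liver. Hspa1a, the stress-inducible Hsp70, was 3.76 ± 0.80 in forestomach, 2.15 ± 1.19 in lung and 1.43 ± 1.60 in liver. Forestomach exceeded liver 5.03-fold (limma adjusted p = 0.00015), and its mean was 3.04-fold that of lung. Vehicle mouse 2 weighed on these values, since without its liver the log2 difference of Hspa1a went from 2.33 to 3.13 for forestomach minus liver and from 0.73 to 1.52 for lung minus liver. Dnajb1, the J-domain partner of inducible Hsp70, followed the same order, with forestomach 2.18-fold above liver (limma adjusted p = 0.00012).

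The mitochondrial pair ran the other way. Hspe1, the Hsp10 lid, was 0.77 ± 0.35 in liver, -0.30 ± 0.20 in forestomach and -0.77 ± 0.43 in lung. It was 2.09-fold lower in forestomach than in liver (limma adjusted p = 0.0093), and the lung mean was 2.90-fold below that of liver. The forestomach call was lost in 1 of 6 alternative fits. A second bright Hspe1 probe was 2.04-fold lower in forestomach than in liver but did not pass (limma adjusted p = 0.0631). A dim Hspe1 probe, above background on 31 of 58 arrays, gave 1.00-fold. Hspd1, the Hsp60 barrel, had a lung mean 1.86-fold below that of liver, while its 1.46-fold difference between forestomach and liver missed the fold threshold (limma adjusted p = 0.0259). Hsp90aa1, the inducible cytosolic Hsp90, was 1.90-fold higher in forestomach than in liver (limma adjusted p = 0.0147), with a lung mean 2.93-fold that of liver. Hspa8, the constitutive Hsp70, had a lung mean 1.78-fold that of liver by its brightest probe. Its other probes gave 1.73-fold and 1.02-fold, so the size depended on the probe. Dnaja1, a J-domain partner of Hspa8, had a lung mean 1.84-fold that of forestomach. Hsph1, the Hsp110 that renews Hsp70, did not pass between forestomach and liver (limma adjusted p = 0.0795).

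A fold change of 1.5 with a Benjamini-Hochberg adjusted p of 0.05 was required. By this rule 8 of the 15 chaperone probes differed between vehicle lung and liver, 6 between forestomach and liver and 4 between lung and forestomach, where 26.9%, 22.7% and 19.5% of all probes did. Nothing is read from the 2 counts that involve lung. Liver arrays were on slides of their own and read with another software version, so for liver the tissue and the slide cannot be told apart. With each array centred on its median in place of loess, 3 probes differed between forestomach and liver and 2 between lung and forestomach. Without vehicle mouse 2 in liver, 11 differed between lung and liver and 9 between forestomach and liver.

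**Figure D1:**
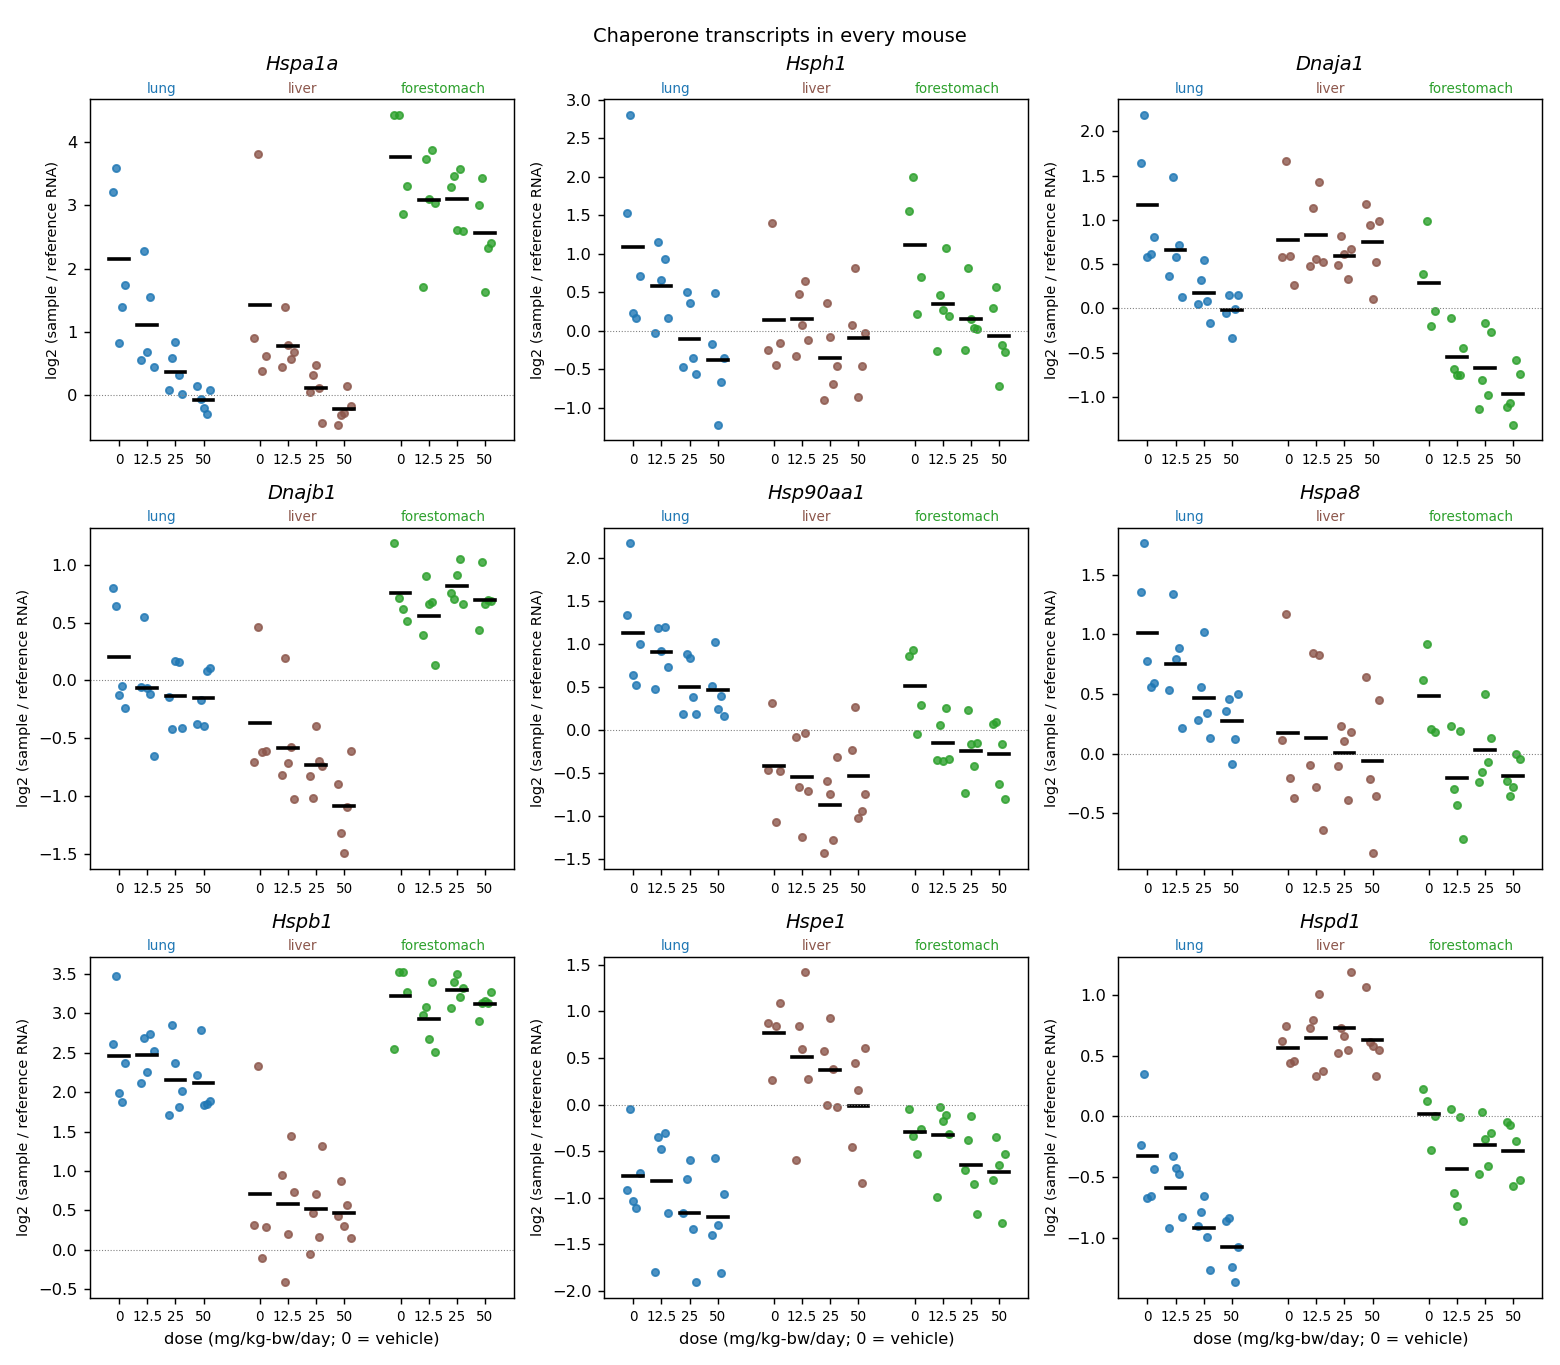
Level of each chaperone in every mouse: the y axis is the log2 ratio of tissue to reference RNA, the x axis the dose (0 is vehicle, in mg/kg-bw/day) within lung (blue), liver (brown) and forestomach (green), points are mice and bars are group means. In lung all 5 Hspa1a values at 50 mg/kg-bw/day, from -0.30 to 0.15, lie below all 5 vehicle values, and in liver 1 vehicle mouse at 3.81 stands far above the other 3.

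In lung, levels of the inducible chaperones were lower in exposed than in vehicle mice, and the widest spread was among the vehicle mice themselves. Hspa1a in the 5 vehicle lungs (mice 1 to 5) was 3.21, 3.59, 0.82, 1.39 and 1.75. At 12.5 mg/kg-bw/day (mice 6 to 10) it was 0.56, 2.28, 0.69, 1.56 and 0.44, and at 25 mg/kg-bw/day (mice 11 to 15) it was 0.08, 0.58, 0.84, 0.31 and 0.02. At 50 mg/kg-bw/day (mice 16 to 20) it was 0.15, -0.06, -0.20, -0.30 and 0.08. Vehicle mice 1 and 2 were far above the other vehicle mice, but the lowest vehicle mouse was above every mouse at the top dose. The fitted difference from vehicle was -1.05 ± 0.42 (SE), -1.78 ± 0.42 and -2.22 ± 0.42 on the log2 scale at the 3 doses. Within each of the 5 slides, which held 1 lung of every group, the top dose was lower than vehicle, by log2 values of -3.65 to -1.02. The difference at the top dose was -1.86 without vehicle mouse 2 and -1.95 without vehicle mouse 1.

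Dnaja1 in vehicle lungs of mice 1 to 5 was 1.64, 2.19, 0.58, 0.62 and 0.80, and in mice 16 to 20 it was -0.06, 0.15, -0.34, -0.01 and 0.15. The groups did not overlap, and the log2 difference was -1.19 ± 0.27 (SE). A second, dimmer Dnaja1 probe gave -0.54 ± 0.16 (SE), also without overlap. Hspd1 was -0.24, 0.35, -0.67, -0.66 and -0.43 in mice 1 to 5 and -0.86, -0.84, -1.24, -1.37 and -1.08 in mice 16 to 20. These groups did not overlap either, with a log2 difference of -0.75 ± 0.17 (SE). Hspa8 was the remaining gene with no overlap, between 0.56 and 1.76 in vehicle mice and between -0.09 and 0.50 at the top dose. Hsph1 was 1.53, 2.81, 0.24, 0.17 and 0.71 in mice 1 to 5 and -0.17, 0.50, -1.22, -0.66 and -0.35 in mice 16 to 20, so mouse 17 lay within the vehicle range. Its log2 difference was -1.47 ± 0.41 (SE). Hsp90aa1 differed by -0.67 ± 0.25 (SE), and the smallest differences were those of Hspe1 (-0.44 ± 0.29), Dnajb1 (-0.36 ± 0.21) and Hspb1 (-0.35 ± 0.26).

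All 9 genes were lower than vehicle at 25 and 50 mg/kg-bw/day in lung, and 8 of 9 at 12.5 mg/kg-bw/day. The median log2 difference of the 9 genes was -0.26, -0.59 and -0.74 with rising dose, while the median over all probes lay between 0.0005 and 0.0019. Under median centring the top-dose median of the 9 genes was -0.44. In that fit the median over the 3055 brightest probes was 0.24, against -0.02 under loess. The number of chaperone probes past both thresholds was 0, 0 and 1 of 15, beside 0%, 0.0126% and 0.079% of all probes, and the 1 was Hspa1a. It no longer passed without vehicle mouse 1 or 2, or without mouse 17, 18, 19 or 20. With slide as a term in the fit, 2 of 15 passed at 25 and 7 of 15 at 50 mg/kg-bw/day, beside 0.106% and 0.278% of all probes. In 5 of 15 probes every lung at 50 was below every vehicle lung, as in 0.684% of all probes. Nothing is read from these shares, because the genes were chosen on this contrast. Over the same contrast heart muscle markers were lower in 6 of 6 genes, fat markers in 6 of 6 and mesothelium markers in 4 of 4, with median log2 differences of -1.53, -1.47 and -0.82. Of these lists, 3 heart muscle genes, 1 fat gene and 4 mesothelium genes were above background on every lung array. The fat genes Lep (-0.05) and Ucp1 (-3.05) were above background on 10 of 20. The mean fat ratio of vehicle lungs 1 to 5 was 0.54, 3.35, 1.69, 2.54 and 3.00. Mouse 2 was the highest and mice 5, 4 and 3 followed in the same order as for Hspa1a, while mouse 1 was the lowest for fat and the second highest for Hspa1a. The part of these markers in the result was not tested.

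**Figure D2:**
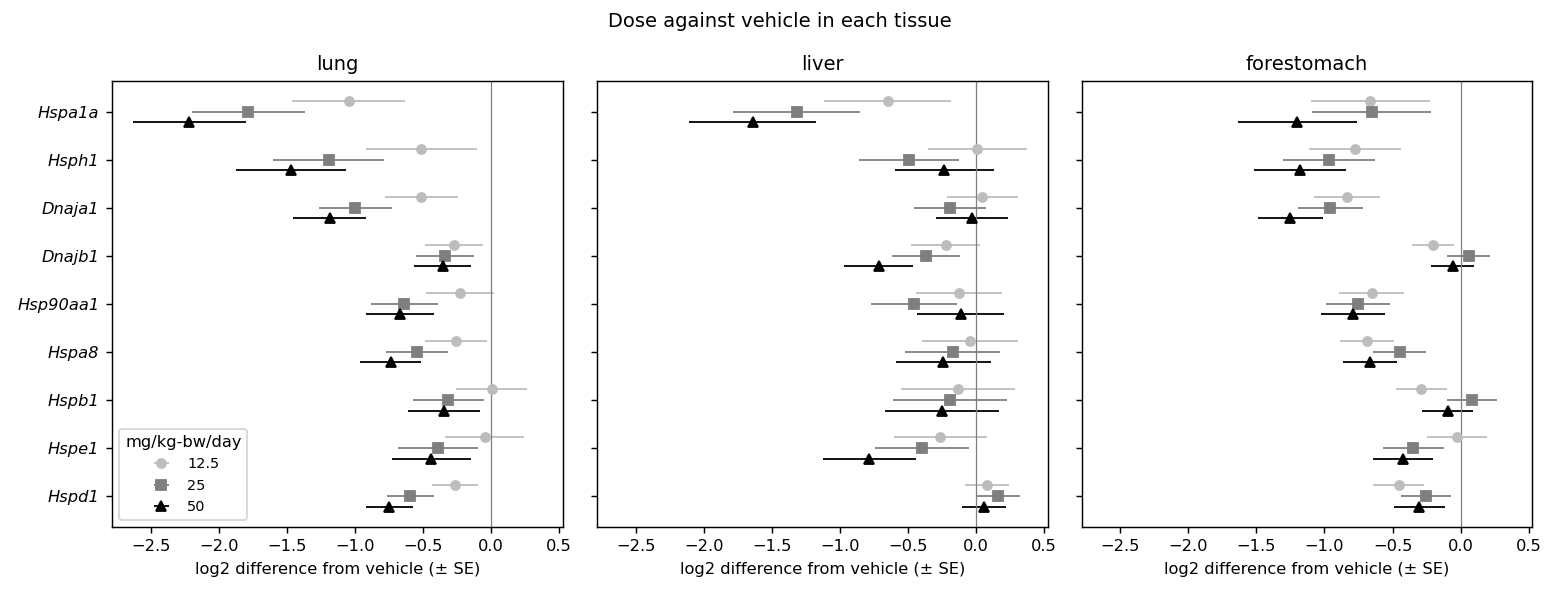
Log2 difference of each chaperone from vehicle (x axis, ± SE from limma) in lung, liver and forestomach at 12.5 (circles), 25 (squares) and 50 (triangles) mg/kg-bw/day. In lung all 9 genes lie below 0 at the top dose, with a median of -0.74, and the forestomach and liver medians are -0.67 and -0.24. When arrays are centred on their median in place of loess, the lung, forestomach and liver medians become -0.44, -0.23 and 0.32.

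Forestomach showed lower Dnaja1, Hsph1, Hspa1a, Hsp90aa1 and Hspa8 at the top dose than in vehicle mice, but no member passed the adjusted test. Dnaja1 in vehicle mice 1, 2, 3 and 5 was 0.39, 0.99, -0.19 and -0.03, and in mice 16 to 20 it was -1.11, -1.07, -1.31, -0.59 and -0.74. The groups did not overlap, and the log2 difference of -1.25 ± 0.24 (SE) had a limma adjusted p of 0.916 over all probes. The sign was the same at 12.5 (-0.84 ± 0.24) and 25 mg/kg-bw/day (-0.96 ± 0.24). A second, dimmer Dnaja1 probe gave -0.37 ± 0.12 (SE) at the top dose, and its groups overlapped. Hspa8 was 0.62, 0.92, 0.21 and 0.18 in vehicle mice and -0.23, -0.35, -0.28, -0.01 and -0.05 at the top dose, without overlap. Hsph1 was 1.56, 2.00, 0.22 and 0.70 against 0.30, 0.56, -0.71, -0.18 and -0.28, where mouse 3 lay within the range of the exposed mice. Hspa1a was 4.43, 4.42, 2.86 and 3.31 against 3.00, 3.42, 1.62, 2.33 and 2.40. Its log2 difference was -1.20 ± 0.44 (SE, limma adjusted p = 0.9999), and the overlap came from mice 3 and 5 on the vehicle side and mice 16 and 17 on the exposed side. Hspb1 and Dnajb1 differed from vehicle by -0.10 ± 0.19 and -0.06 ± 0.16, less than the spread between mice.

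Past both thresholds there were 0 of 15 chaperone probes at each forestomach dose, beside 0% of all probes at each. At an unadjusted p under 0.05 with a lower level, 9 of 15 probes passed at 50 mg/kg-bw/day, beside 1.84% of all probes. Every exposed mouse was below every vehicle mouse for 5 of 15 probes, beside 0.767% of all probes. The chaperones share their vehicle mice, so these probes are not independent of one another. The genes were chosen on lungs of these same mice, and deviations partly carried over between tissues. Nothing is therefore read from these shares. The median log2 difference of the 9 genes was -0.65, -0.45 and -0.67 with rising dose. Under median centring it was -0.12, -0.13 and -0.23, and Dnajb1, Hspb1 and Hspd1 turned positive at the top dose. In the same fit the median over the 3055 brightest probes was 0.41, against 0.0038 under loess. At 50 mg/kg-bw/day glandular stomach markers were lower in 5 of 6 genes (median log2 difference -0.73) and fat markers higher in 5 of 6 (median 1.38). Of these lists, 3 glandular genes and 1 fat gene were above background on every forestomach array. That fat gene, Cidea, differed by 0.13. Adipoq, Plin1, Lep, Ucp1 and Retn were above background on 9, 7, 8, 11 and 8 of 19 arrays. The mean glandular ratio of vehicle mice 1, 2, 3 and 5 was 0.77, 6.21, 6.31 and 6.26. The part of these markers in the result was not tested.

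Liver showed lower Hspa1a, Dnajb1 and Hspe1 at the top dose, again without an adjusted call, and little difference for the other members. Hspa1a in vehicle mice 1, 2, 3 and 5 was 0.90, 3.81, 0.38 and 0.61. In mice 16 to 20 it was -0.46, -0.31, -0.28, 0.14 and -0.17. No values overlapped, with a log2 difference of -1.64 ± 0.47 (SE, limma adjusted p = 0.630). Without mouse 2 the difference was -0.85. Dnajb1 was -0.71, 0.47, -0.62 and -0.61 in vehicle mice and -0.89, -1.32, -1.50, -1.09 and -0.61 at the top dose, a log2 difference of -0.71 ± 0.25 (SE, adjusted p = 0.713). Hspe1 was 0.88, 0.27, 0.84 and 1.09 in vehicle mice and -0.45, 0.45, 0.16, -0.84 and 0.61 in mice 16 to 20, a log2 difference of -0.78 ± 0.34 (SE, adjusted p = 0.718), and here mouse 2 was the lowest vehicle mouse. Hspd1 and Dnaja1 differed by 0.06 ± 0.16 and -0.03 ± 0.26.

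Past both thresholds there were 0 of 15 chaperone probes at each liver dose, beside 0% of all probes at each dose. At an unadjusted p under 0.05 with a lower level, 4 of 15 passed at 50 mg/kg-bw/day, beside 4.43% of all probes. Every exposed mouse was below every vehicle mouse for 1 of 15, beside 1.59%. Nothing is read from these shares either, because the genes were chosen on lungs of the same mice. The median log2 difference of the 9 genes at 50 mg/kg-bw/day, -0.24, became 0.12 without vehicle mouse 2. With median centring it became 0.32, and Hsph1, Dnaja1, Hsp90aa1, Hspa8 and Hspb1 turned positive. In that fit the median over the 3055 brightest probes was 0.54, against -0.01 under loess. Hspa1a was negative in the 11 alternative fits that kept every mouse, between -2.24 and -0.89, and in the 9 that left out 1 mouse, between -1.99 and -0.85.

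The top-dose difference was compared between tissues in 1 fit. The comparisons that involve lung draw on the values the genes were chosen on, and they are given as sizes with nothing read from their counts. By the adjusted test 0 of 15 chaperone probes passed in each, beside 0.0162% of all probes for lung against liver, 0.0144% for lung against forestomach and 0.00359% for forestomach against liver. At an unadjusted p under 0.05 the counts were 4 of 15 (7.08% of all probes), 0 (2.91%) and 2 (6.17%). Between forestomach and liver, the Dnaja1 difference was lower in forestomach by a log2 value of -1.22 ± 0.40 (SE, limma adjusted p = 0.705). A second, dimmer Dnaja1 probe gave only -0.08 ± 0.34. The Dnajb1 difference was higher in forestomach by 0.66 ± 0.32 (limma adjusted p = 0.807). For Hspa1a the same comparison gave 0.44 ± 0.68 (SE, limma adjusted p = 0.940), which does not show that the tissues acted alike. Lung minus liver was -1.16 ± 0.38 for Dnaja1 (-0.25 ± 0.33 by its dimmer probe), -0.81 ± 0.25 for Hspd1 and -0.58 ± 0.66 for Hspa1a.

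Other chaperone systems, taken from lists of known members, were read at 50 mg/kg-bw/day with the brightest probe of each gene. Of 31 measured genes of the cytosolic heat shock system outside the set, which includes co-chaperones of Hsp70 and Hsp90, 0 passed both thresholds in any tissue. In lung 27 of 31 were lower, with a median log2 difference of -0.17, and the 2 largest were Chordc1 (-0.80 ± 0.18, SE), an Hsp90 partner, and Cacybp (-0.70 ± 0.26). Stub1, a ubiquitin ligase that acts on Hsp70 clients, was the lowest of the list by p and lay above vehicle at 0.31 ± 0.07 (limma adjusted p = 0.0609). Forestomach gave a median of -0.14 with Hspa4l, another Hsp110, at -0.67 ± 0.22 and Chordc1 at -0.56 ± 0.18, and liver gave -0.04 with Bag3, an Hsp70 nucleotide exchange factor, at -0.59 ± 0.24 and Dnaja4 at -0.55 ± 0.29.

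The 14 genes of the cytosolic TRiC and prefoldin complexes, which fold actin and tubulin, had medians of -0.16 in lung, -0.06 in liver and -0.08 in forestomach. The largest lung differences were Cct8 (-0.31 ± 0.08) and Cct5 (-0.29 ± 0.09). Among 10 mitochondrial chaperones and proteases the medians were -0.03, 0.12 and 0.03, although Hspa9, the mitochondrial Hsp70, was at -0.31 ± 0.07 in lung. Endoplasmic reticulum chaperones, which answer to the unfolded protein response of that compartment, had medians of -0.17 in lung, 0.19 in liver and -0.27 in forestomach over 18 genes. Xbp1, a transcription factor of that response, was at -0.48 ± 0.09 in lung (limma adjusted p = 0.0331, under the fold threshold). Hspa5, the Hsp70 of that compartment, was at -0.67 ± 0.19 in forestomach, where 17 of 18 genes were lower and 0 passed both thresholds. None of these lists had a gene past both thresholds in any tissue at any dose.

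**Figure D3:**
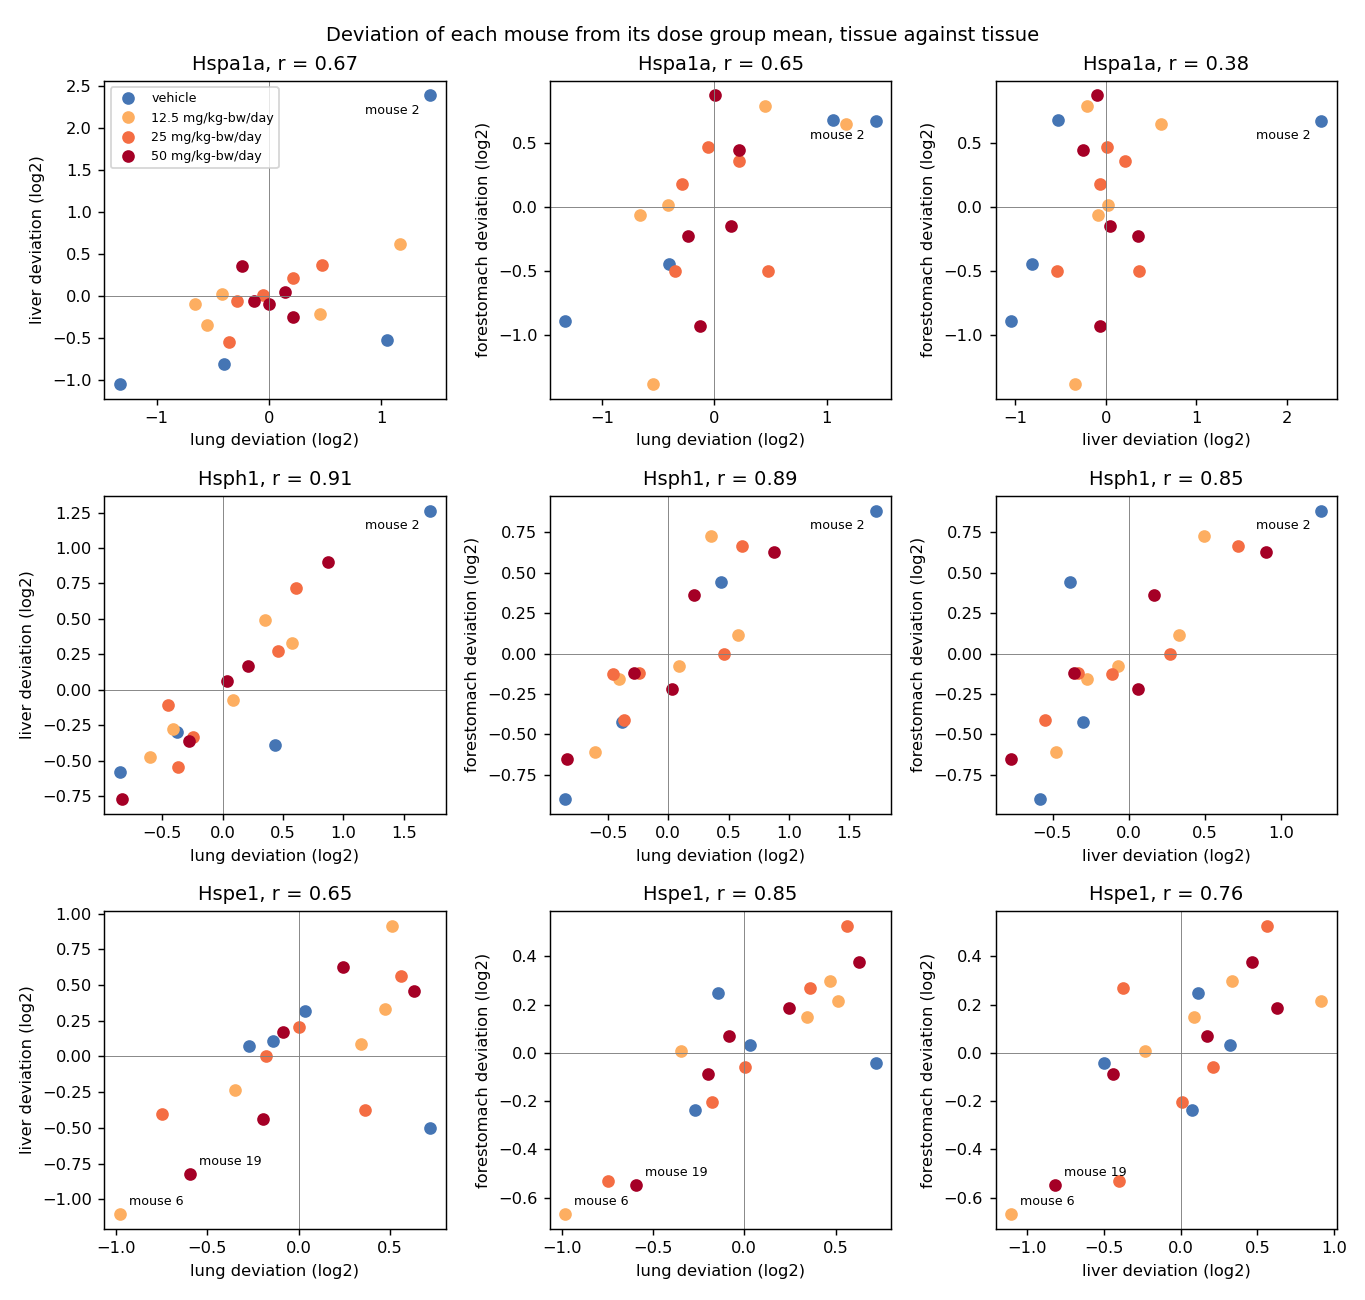
Deviation of each mouse from the mean of its own dose group (log2), 1 tissue against another, for Hspa1a, Hsph1 and Hspe1 in 19 mice; colours are dose groups and r is Pearson's. Hsph1 deviations line up in all 3 panels (r = 0.91, 0.89 and 0.85), whereas the Hspa1a relation of lung and liver leans on mouse 2, and mice 6 and 19 are low for Hspe1 in every tissue.

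Mice that were high or low for a chaperone in 1 tissue tended to be so in the others. By the brightest probe of each gene, r was highest for Hsph1 before slides were taken into account. Each value was set against the mean of its own dose group and tissue, and the deviations of the 19 mice with all tissues were compared. Pearson's r for Hsph1 was 0.91 between lung and liver, 0.89 between lung and forestomach and 0.85 between liver and forestomach, with Spearman's rho of 0.84, 0.91 and 0.82. Mouse 2 was the highest, with deviations of 1.72 in lung, 1.26 in liver and 0.88 in forestomach, and mouse 17 was high as well with 0.88, 0.90 and 0.63. Mouse 18 was low throughout at -0.84, -0.77 and -0.65, as was mouse 3 at -0.85, -0.58 and -0.90. Without the 2 mice farthest from the median r was 0.86, 0.86 and 0.80. A second Hsph1 probe gave 0.94, 0.89 and 0.85. These points share the slide for lung and forestomach (18 of 19 mice). Liver arrays were on other slides, but mice that shared a lung slide mostly shared a liver slide as well. With slide means removed within each tissue, r between lung and liver was 0.52 for Hsph1 and 0.77 for Hspe1, so the order of these genes turned, and r between liver and forestomach was 0.47 for Hsph1.

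Hspe1 also went with the mouse. Its r was 0.65, 0.85 and 0.76 (rho 0.60, 0.79 and 0.73) for lung with liver, lung with forestomach and liver with forestomach, and the second probe gave 0.76, 0.91 and 0.86. Mouse 6 deviated by -0.98 in lung, -1.10 in liver and -0.67 in forestomach, mouse 19 by -0.59, -0.82 and -0.55, and mouse 15 by -0.75, -0.40 and -0.53. Mouse 13 was high in all tissues at 0.56, 0.56 and 0.53, and mouse 17 at 0.63, 0.46 and 0.38. The mice that stood out for Hspe1 came from all 3 exposed groups, and mouse 2, the extreme for Hsph1, deviated for Hspe1 by 0.72 in lung, -0.50 in liver and -0.04 in forestomach. Hspd1, whose second promoter entry shares 285 bases with that of Hspe1, gave r of only 0.24, 0.18 and 0.60. Across all 58 arrays the deviations of Hspe1 and Hspd1 had r = 0.28.

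For Hspa1a r was 0.67, 0.65 and 0.38 (rho 0.52, 0.64 and 0.24), falling to 0.33, 0.57 and 0.19 without mice 2 and 3. Hsp90aa1 gave 0.57, 0.79 and 0.71, Hspa8 0.75, 0.55 and 0.54, Dnajb1 0.63, 0.78 and 0.24, Dnaja1 0.67, 0.42 and 0.33 and Hspb1 0.56, 0.21 and 0.32. Among the 22206 probes above background on at least 3 in 4 arrays the median r was 0.10, 0.21 and 0.03, and the 95th percentile 0.54, 0.64 and 0.46. The chaperone gene r exceeded that percentile for 8, 5 and 5 of 9 genes. An r of at least 0.8 in all 3 pairs was found for 19 of the 22206 probes, and 2 of these were the Hsph1 probes. The 27 relations are given as descriptions, without a test.

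**Figure D4:**
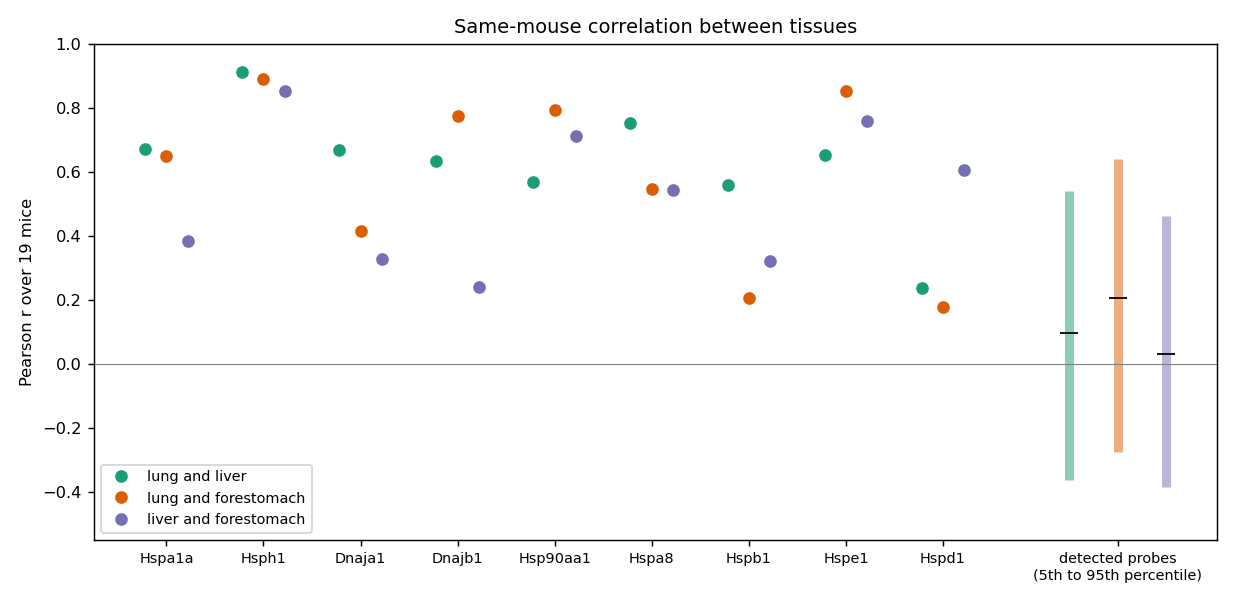
Pearson's r over 19 mice between tissues for the 9 chaperones (points, y axis) beside the 5th to 95th percentile and median of detected probes (bars and black ticks), for lung and liver (green), lung and forestomach (orange) and liver and forestomach (purple). Hsph1 lies above the bars in all 3 pairs, and Hspb1 and Hspd1 are within the bar for lung and forestomach, at 0.21 and 0.18.

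Over the 58 arrays the deviations of Dnaja1 and Hspa8, which work together, had r = 0.87, those of Hsph1 and Hsp90aa1 0.84 and those of Hsph1 and Hspa1a 0.77. The r of Hspe1 with the other members lay between 0.10 (Hspb1) and 0.46 (Hsph1), and Dnajb1 with Hspb1 was also low at 0.18. Probes of 1 gene moved together where they were bright, with r of 0.99 for the Hsph1 pair, 0.97 and 0.85 for the Hspa8 probes and 0.97 for the brighter Hspe1 pair. The dimmest probes of Dnaja1 and Hspe1 followed their partners at r of only 0.35 and 0.18.

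Outside the set, the 5 genes of 11883 whose deviations were most like those of Hspa1a were Cacybp (r = 0.75), Hspb8 (0.73), Taf12 (0.72), Stip1 (0.71) and Lman2l (0.70). Cacybp, Stip1, which links Hsp70 to Hsp90, and Hspb8, a small heat shock protein, also belong to the cytosolic list above. The lowest r was that of Cirbp, a cold-inducible RNA-binding protein, at -0.69 over all arrays and -0.89 in lung, -0.78 in liver and -0.35 in forestomach. For Hsph1, examined after its values were seen, the nearest genes were Stip1 (0.93), Cacybp (0.87) and Hspa4l (0.85). For Hspe1, likewise examined afterwards, no gene of the 11883 exceeded 0.59 (Kat8). The arrays share mice and slides, so these r are descriptions over 58 arrays and not over 58 independent animals.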

How the data were processed

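RNA of each tissue was hybridized in Cy5 against a reference in Cy3 on Agilent arrays. The authors' scanner software made the deposited intensity values, the spot medians used here; the log10 ratios deposited with them are that software's normalized values, and the authors also gave LOWESS-normalized log2 ratios of medians. In liver the latter had r of -0.01 to 0.01 with the scanner ratios under the given names and were not used. Log2(Cy5/Cy3) was computed without background subtraction and loess-normalized within each array, leaving out 13625 of 3439690 spots flagged as outliers. RefSeq accessions gave 26413 probes a gene name. limma 3.58.1 (R 4.3.3, statmod 1.5.0) was fitted per tissue to 4 groups, and jointly for tissue contrasts, with Benjamini-Hochberg adjustment over all probes. The joint fit did not pair the tissues of a mouse. The number of arrays limits the precision. All 9 measured genes were named, by the brightest probe. The members, gene lists and tests were chosen with earlier results of these data known. Alternatives were normexp (offset 50), median centring, Aquantile, Cy5 alone, the scanner ratio, the authors' values, spot and probe filters, slide and mouse blocks, other limma settings, gene means and leaving out each mouse. The labels pair tissues of 1 mouse by number; the consensus correlation was 0.0458 within mouse and 0.0965 within slide. The methods count 4 vehicle mice and the labels 5 for lung.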

Additional observations from a re-analysis of the deposited data

Results flagged for a closer look

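Vehicle mouse 2 stood apart from the other 3 vehicle livers in 4 chaperones: the gap to the next mouse, over the range, passed Dixon's critical value. Its log2 ratio was 3.81 for Hspa1a against 0.90 for the next mouse, 1.40 for Hsph1 against -0.16, 0.47 for Dnajb1 against -0.61 and 2.34 for Hspb1 against 0.31. These were 4 of 108 groups examined, and chance marks about 1 in 20 of such groups.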

How the results depend on the processing

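Of 282 alternative values of the main results, 260 stayed near the reported value. A median that shifted by less than the spread between mice counted as near even if its sign changed. The liver median at 12.5 mg/kg-bw/day, -0.12, lay between -0.19 and 0.24 over 11 alternatives, all counted as near. With the array median in place of loess, the liver median at 50 mg/kg-bw/day reversed to 0.32, as did Hsph1 (0.33), Dnaja1 (0.52), Hsp90aa1 (0.45), Hspa8 (0.30) and Hspb1 (0.32) there. The forestomach medians became -0.12, -0.13 and -0.23 with rising dose, with Dnajb1 at 0.34, Hspb1 at 0.33 and Hspd1 at 0.11, and the cause was not tested. Under this scaling Hsph1 in vehicle lung minus forestomach was 0.44, and 3 and 2 chaperone probes differed between forestomach and liver and between lung and forestomach. From Cy5 alone the forestomach median at 12.5 mg/kg-bw/day was -0.36. The single lung call at 50 mg/kg-bw/day became 0 with median centring, Cy5 alone, the scanner ratio, a fit of vehicle and that dose alone, and limma's trend and robust options. With slide as a block it became 7, the count at 25 mg/kg-bw/day became 2, and Dnaja1 in liver became 0.0662. With slide means removed, r between lung and liver was 0.44 for Hspa1a, 0.52 for Hsph1 and 0.77 for Hspe1, and 0.47 for Hsph1 between liver and forestomach. Without the 2 farthest mice, r between lung and liver was 0.33 for Hspa1a and 0.48 for Hspe1, and for Hspe1 0.74 between lung and forestomach and 0.57 between liver and forestomach.

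Leaving out 1 mouse at a time gave 0 to 1 lung calls at 50 mg/kg-bw/day, with 0 when vehicle mouse 1 or 2 or mouse 17, 18, 19 or 20 was left out. The lung medians spanned -0.40 to -0.08, -0.68 to -0.38 and -0.83 to -0.55 with rising dose. Those of liver spanned -0.24 to 0.15, -0.45 to -0.07 and -0.42 to 0.12, each highest without vehicle mouse 2. Those of forestomach spanned -0.78 to -0.44, -0.55 to -0.36 and -0.77 to -0.52. Vehicle contrasts gave 6 to 11 probes for lung against liver, 5 to 9 for forestomach against liver and 2 to 5 for lung against forestomach. For the same mouse, r spanned 0.58 to 0.81, 0.56 to 0.72 and 0.28 to 0.47 for Hspa1a, 0.87 to 0.95, 0.85 to 0.91 and 0.81 to 0.94 for Hsph1 and 0.50 to 0.83, 0.79 to 0.93 and 0.65 to 0.84 for Hspe1.

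For liver at the top dose, leaving out 1 mouse moved Hsph1 between -0.46 and 0.19, Dnaja1 between -0.20 and 0.27, Hsp90aa1 between -0.33 and 0.13, Hspa8 between -0.42 and 0.0918 and Hspb1 between -0.52 and 0.29, each highest without vehicle mouse 2. Hspd1 lay between -0.0477 (without mouse 16) and 0.13. In forestomach Dnajb1 lay between -0.14 and 0.0848 (without vehicle mouse 1) and Hspb1 between -0.32 and 0.0065 (without vehicle mouse 3). Hsph1 in vehicle lung minus forestomach lay between -0.46 and 0.26, and was above 0 in 5 such fits. With the mouse as a replicate block, the vehicle contrasts gave 9, 7 and 4 probes and the comparisons of the dose effect 0, 0 and 0. No count moved by over 1.5 times. This block used 1 correlation of 0.0458 for all probes, far below the same-mouse r of several chaperones. It therefore hardly paired the tissues of 1 animal for these genes, and paired tests gene by gene were not run. The common reference, 4 or 5 mice per group and the share of probes above background limit what these arrays can show, and doses were confounded with array position.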
